A study of Mus musculus with 8 samples.

Results

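The genes described here build and guard the primary cilium, the single antenna on most mesenchymal cells through which hedgehog signals are read. They were chosen by symbol among the rows of the deposited table, with earlier results of these data known. The chosen symbols name intraflagellar transport (IFT) proteins, Bardet-Biedl syndrome (BBS) proteins, kinesin-2 and dynein-2 motor subunits, transition zone proteins and ciliary hedgehog regulators. The choice gave 48 of the 17631 genes in the table, and all 48 were measured in both groups. In mouse molars in which Runx2 was targeted in Gli1-expressing cells, none of the 48 passed the adjusted threshold in either direction. The mean was higher in mutant molars for 33 of them, where 50.6% of all genes were higher, and lower for 15, with a median log2 ratio of 0.08, against 0.00327 over all genes. With each group mean divided by its group's sum over all genes, 42 were higher, against 71.8% of all genes.

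RNA came from the apical part, where the root grows, of lower first molars of C57BL/6 mice at postnatal day 7.5. The 4 mutant libraries were from Gli1-CreERT2;Runx2fl/fl mice and the 4 control libraries from Runx2fl/fl mice, so both groups carried floxed Runx2 alleles and the mutant group alone carried the tamoxifen-inducible recombinase. Induction was at postnatal day 3.5 with 1.5 mg of tamoxifen for each 10 g of mouse, and fragments were read as 2 x 50 nt. The recombinase is expressed where Gli1 is active, so part of the tissue was targeted, and the labels do not say whether the driver interrupts Gli1 itself or whether a library is 1 animal. What the driver does and what Runx2 loss does cannot be told apart. The authors' deposited table gives a mean of normalised signal for each group, their ratio, and a p-value with its adjusted form, and every mean, fold and p-value of a gene below is from that table. It holds 1 value per group, so no spread between libraries, interval or depth per library can be given, and p-values measure a spread between libraries that may be partly technical. Summed over all genes, the group means come to 955256 for mutant and 1050684 for control molars. Whether the signal is corrected for transcript length is not given in the sources used here, so levels are compared between groups and not between genes.

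Primary cilia are built by IFT trains that run along the axoneme. Kinesin-2 carries the IFT-B complex and its cargo toward the tip, dynein-2 and the IFT-A complex bring material back, and the BBSome sorts membrane proteins out of the cilium. The transition zone at the base is a gate made of MKS and NPHP modules. In vertebrates, the hedgehog receptors and the GLI factors pass through the cilium, and loss of IFT or gate proteins disturbs both activation of GLI targets and production of the GLI repressor. Hedgehog ligand from the dental epithelium acts on the root-forming mesenchyme, where Gli1 marks responding cells, and mice without Evc have abnormal teeth.

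Many ciliary genes of animals carry in their promoters an X-box, the site bound by RFX transcription factors. It consists of a pair of inverted arms with a short spacer, and was searched as the arm GTTGCC and as a full form in which 2 free bases and GGNAAC follow that arm, on both strands, in RefSeq promoters of mouse build GRCm38.p6 that run from 250 bases before to 50 bases after each start. Every match to the full form holds an arm. Promoters were found for 41 of the 48 genes, 45 promoters in all, and 22 of the 45 (48.9%) held the arm, against 4111 of all 32851 promoters (12.5%). Among 13247 promoters of protein-coding genes with a mean of at least 1 in either group the share was also 12.5%. The full form stood in 3 of the 45 promoters (6.67%), against 0.298% of all promoters. These counts describe letters in a window and say nothing about binding in this tissue. The median log2 ratio was 0.10 for the 22 genes with an arm and 0.04 for the 19 without. Printed below are the 3 promoters with the full form as searched. Also printed are promoters of Kif3a and B9d2 that hold an arm, from genes with low p-values in opposite directions. In the B9d2 window the arm is followed by ccagcaac, with ag where the searched form has GG, so it was not counted as full. Other spacers and other letters in the arms were not searched. Capitals mark the matched letters. The windows are chr3:36613340-36613639, minus strand for Bbs7, chr11:87852965-87853264, plus strand for Mks1, chr5:122264411-122264710, minus strand for Tctn1, chr11:53567119-53567418, plus strand for Kif3a and chr7:25680530-25680829, plus strand for B9d2. A further promoter of B9d2, at chr7:25680908-25681207 on the plus strand, holds no arm and is not printed.
Bbs7: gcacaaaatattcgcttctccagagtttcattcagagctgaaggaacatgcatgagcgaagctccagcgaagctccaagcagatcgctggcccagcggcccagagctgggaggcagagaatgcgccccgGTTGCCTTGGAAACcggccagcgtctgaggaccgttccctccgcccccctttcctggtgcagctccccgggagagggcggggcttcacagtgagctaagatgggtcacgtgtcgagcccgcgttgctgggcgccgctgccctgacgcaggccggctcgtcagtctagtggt
Mks1: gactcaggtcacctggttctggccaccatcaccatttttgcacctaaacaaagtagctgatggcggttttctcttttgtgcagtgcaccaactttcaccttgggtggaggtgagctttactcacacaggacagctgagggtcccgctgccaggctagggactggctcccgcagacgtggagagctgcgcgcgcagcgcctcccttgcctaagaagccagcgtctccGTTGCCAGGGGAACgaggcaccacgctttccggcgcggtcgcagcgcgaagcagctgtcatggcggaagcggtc
Tctn1: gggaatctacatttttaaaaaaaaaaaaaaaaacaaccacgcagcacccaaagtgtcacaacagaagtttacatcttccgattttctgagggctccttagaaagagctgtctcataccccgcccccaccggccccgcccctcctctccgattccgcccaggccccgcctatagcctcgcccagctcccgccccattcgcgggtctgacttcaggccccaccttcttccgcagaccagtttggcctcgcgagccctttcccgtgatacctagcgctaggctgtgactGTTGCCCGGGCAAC
Kif3a: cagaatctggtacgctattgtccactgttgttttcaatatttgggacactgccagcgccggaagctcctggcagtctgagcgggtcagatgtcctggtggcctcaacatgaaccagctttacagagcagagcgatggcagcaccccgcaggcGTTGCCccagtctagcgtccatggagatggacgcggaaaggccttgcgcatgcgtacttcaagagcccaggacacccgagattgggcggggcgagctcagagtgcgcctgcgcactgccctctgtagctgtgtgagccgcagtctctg
B9d2: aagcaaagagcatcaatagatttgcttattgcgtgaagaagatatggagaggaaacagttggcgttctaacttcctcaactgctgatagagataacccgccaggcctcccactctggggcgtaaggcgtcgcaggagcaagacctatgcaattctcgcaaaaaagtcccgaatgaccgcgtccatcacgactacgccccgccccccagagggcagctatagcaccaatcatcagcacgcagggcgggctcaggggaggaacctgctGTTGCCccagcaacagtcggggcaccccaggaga

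In the Bbs7 window the matched site starts at base 130, upstream of the start of transcription, which follows base 250. In the Mks1 window it starts at base 227, just before the start, and in the Tctn1 window at base 287, after it. The arm of Kif3a starts at base 153 and that of B9d2 at base 267. The genes with the full form did not share a direction in the mutant, with log2 ratios of 0.20 for Bbs7, -0.14 for Mks1 and -0.10 for Tctn1.

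At the adjusted threshold of 0.05 no gene of the 48 was called in the authors' deposited table, while 139 of the 17631 genes were (0.788%, with 0.471% higher and 0.318% lower in the mutant). At an adjusted p under 0.10, 2 of the 48 were called, Ift74 and B9d2, against 3.64% of all genes. At an unadjusted p under 0.05, 8 of the 48 were called (16.7%), against 3401 of all genes (19.3%), so the share among the cilium genes lay near that of the whole table. Of these 8, 7 were higher in the mutant (Ift74, Kif3a, Ift80, Dync2h1, Wdr35, Ift81 and Tmem231) and 1 was lower (B9d2), where 9.89% of all genes were higher and 9.4% lower by the same rule. A smooth trend of the test statistics on GC content and exonic length was then subtracted. Of the 8, 3 kept an unadjusted p under 0.05 (Ift74, Kif3a and Tmem231). Neither Ift74 nor B9d2 kept an adjusted p under 0.10. The smallest absolute log2 ratio among the 139 called genes was 0.31. Of the cilium genes, 42 had a ratio no larger than that, and 6 exceeded it, as did 26.1% of all genes. A p above the threshold does not show that a gene was the same in both groups, and with group means alone no interval can be put on these ratios. In such bulk samples, fewer cells of a type and less RNA per cell cannot be told apart.

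**Figure D1:**
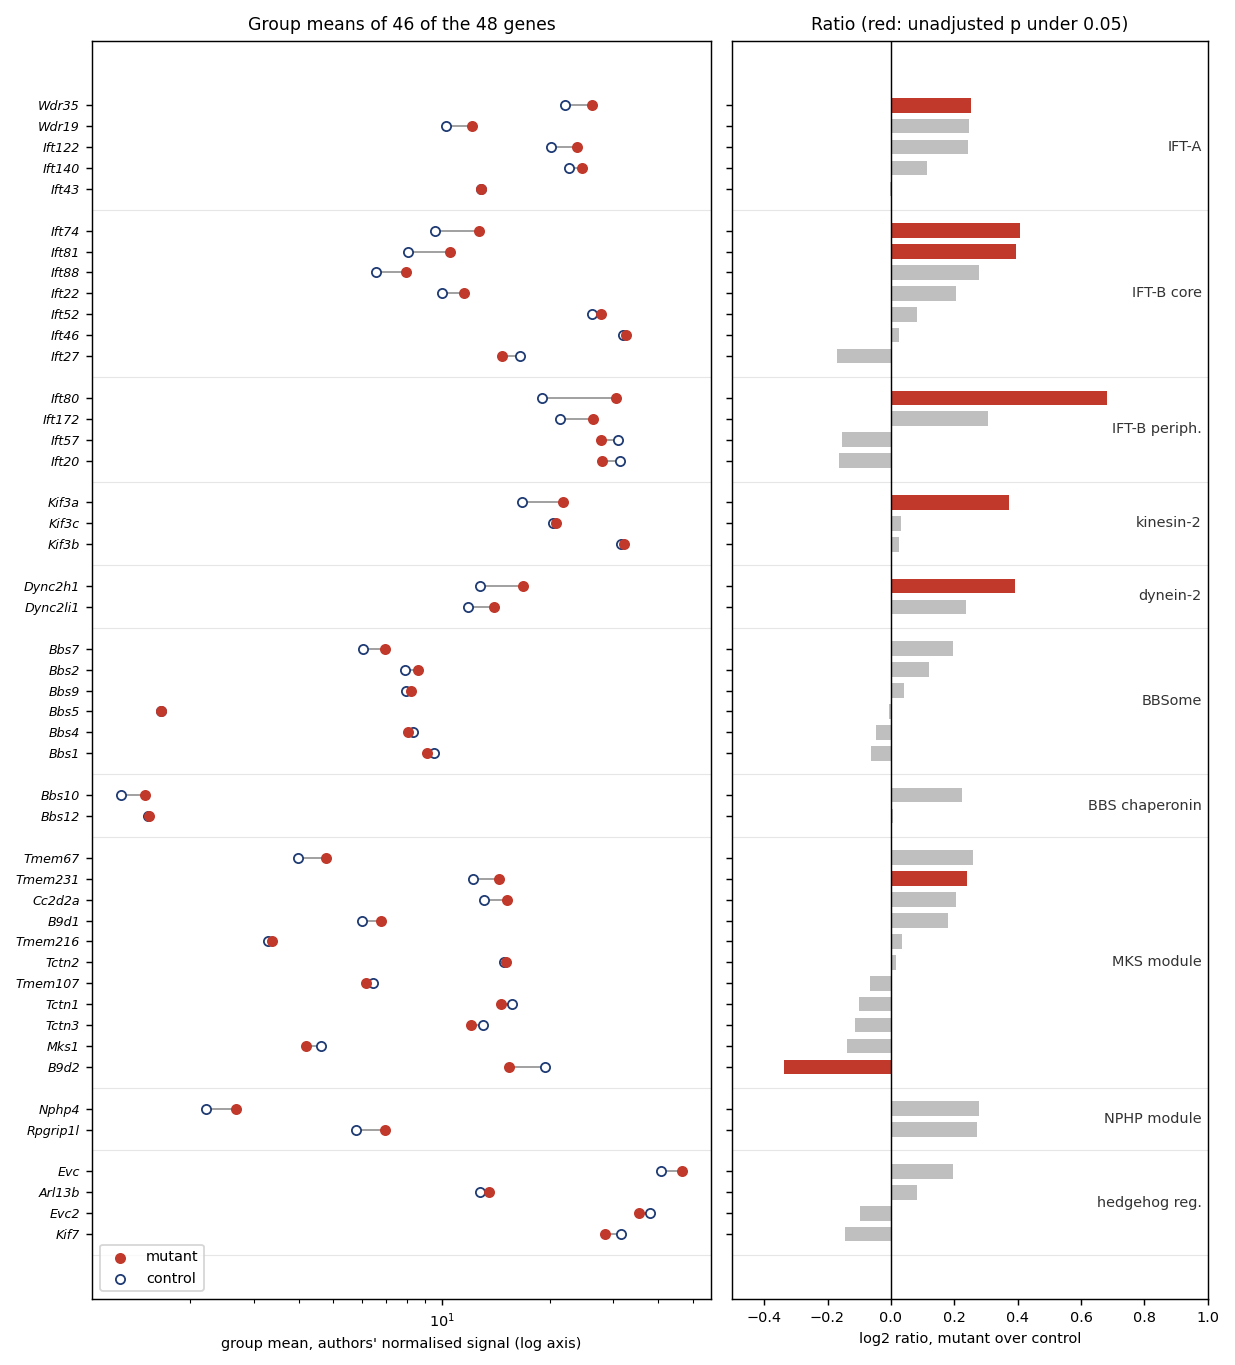
Left, the mutant mean (filled) and the control mean (open) of 46 of the 48 genes in the authors' normalised signal on a log axis, with genes grouped by complex; right, the log2 ratio of mutant over control, with a red bar where the unadjusted p was under 0.05. Most bars are short and point to the mutant side, Ift80 has the longest (0.68), and B9d2 is the 1 red bar on the control side (-0.34).

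The retrograde IFT-A complex returns cargo from the ciliary tip and carries membrane proteins into the cilium. Of its 5 genes, 4 had higher means in the mutant, and the median log2 ratio was 0.24. Wdr35, which encodes the IFT121 subunit, had a mean of 26.2 in mutant molars and 22.0 in control molars, a 1.19-fold difference with p = 0.0291 before and 0.208 after adjustment in the authors' deposited table. The gene lies at chr12:8973892-9028847 on the plus strand (GRCm38) and is protein-coding. The core subunits Wdr19 (log2 ratio 0.25), Ift122 (0.24) and Ift140 (0.12) leaned the same way without passing. Ift43, the small subunit, had 12.9 in mutant molars and 12.9 in control molars, with a log2 ratio of -0.00312.

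The IFT-B core carries tubulin and other building material outward. Of its 7 genes, 6 had higher means in the mutant, with a median log2 ratio of 0.20. Ift74 and Ift81 encode partners that together form the tubulin-binding module of the train. Ift74 (chr4:94614491-94693229, plus strand) had a mean of 12.7 in mutant molars and 9.60 in control molars, which is 1.33-fold higher, with p = 0.00102 before and 0.0698 after adjustment in the authors' deposited table. This was the lowest p of the 48 genes, and 250 genes of the table had a lower one. Its partner Ift81 (chr5:122550204-122614518, minus strand) had 10.6 in mutant molars and 8.05 in control molars, 1.31-fold higher, with p = 0.0338 before and 0.22 after adjustment in the authors' deposited table. Both partners of the module thus had similar ratios, neither of which passed. Ift88, whose loss in mice abolishes cilia, had a log2 ratio of 0.28 and an unadjusted p of 0.0516. Ift22, a Rab-like GTPase, stood at 0.20, Ift52 at 0.08 and Ift46 at 0.03. Ift27, a small GTPase through which the BBSome is linked to the trains, had 14.7 in mutant molars and 16.5 in control molars, by the authors' deposited table (log2 ratio -0.17, adjusted p = 0.376).

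The 4 peripheral IFT-B genes were split, with 2 higher and 2 lower. Ift80 (chr3:68892499-69004570, minus strand), a subunit whose human mutations cause a skeletal ciliopathy, had a mean of 30.5 in mutant molars and 19.0 in control molars. That 1.60-fold difference was the greatest of the 48 genes in the authors' deposited table, but its p was 0.0216 before and 0.187 after adjustment. Ift80 and Smc4, a condensin gene, start 168 bases apart on opposite strands, and Smc4 passed the threshold with 34.3 in mutant molars and 24.0 in control molars (log2 ratio 0.52, adjusted p = 0.0398 in the authors' deposited table). With the trend on GC content and length subtracted the Smc4 call was lost (log2 ratio 0.23, adjusted p = 0.298, recomputed from the authors' deposited table). Smc4 was singled out after its value was seen. Of the 10 genes with a measured protein-coding neighbour that starts within 1000 bases on the opposite strand, Ift80 was the 1 whose neighbour passed, and 4 of the 10 pairs had ratios of the same sign. Ift172, a large subunit at the tip turnaround, stood at a log2 ratio of 0.31. Ift20, which also works at the Golgi apparatus, had 27.9 in mutant molars and 31.3 in control molars (log2 ratio -0.16), and Ift57 stood at -0.15.

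All 5 motor genes had higher means in the mutant, with a median log2 ratio of 0.24, and none passed. Kif3a (chr11:53567379-53601967, plus strand), the motor subunit of heterotrimeric kinesin-2, had 21.7 in mutant molars and 16.8 in control molars. It was 1.29-fold higher, with p = 0.0070 before and 0.122 after adjustment in the authors' deposited table. Its partner Kif3b had 32.2 in mutant molars and 31.6 in control molars, a log2 ratio of 0.02, and Kif3c, a related subunit, stood at 0.03. The motor subunits of the same kinesin therefore did not have like ratios, although the difference between them was not tested. Dync2h1 (chr9:6928503-7184446, minus strand), the heavy chain of dynein-2, had 16.8 in mutant molars and 12.8 in control molars, 1.31-fold higher with p = 0.0265 before and 0.201 after adjustment in the authors' deposited table. Dync2li1, its light intermediate chain, had 14.0 in mutant molars and 11.9 in control molars, with an unadjusted p of 0.0881 in the authors' deposited table.

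The BBSome genes had small ratios. Of 6 BBSome genes, 3 had higher and 3 had lower means in the mutant, the median log2 ratio was 0.02, and no unadjusted p was under 0.05. The greatest ratio was that of Bbs7 (6.94 in mutant molars and 6.06 in control molars, log2 ratio 0.20) and the lowest that of Bbs1 (9.12 in mutant molars and 9.53 in control molars, -0.06) in the authors' deposited table. Bbs2 stood at 0.12, Bbs9 at 0.04, Bbs5 at -0.00591 and Bbs4 at -0.05. Bbs10 and Bbs12 encode chaperonin-like proteins that help assemble the BBSome, and both had low means. Bbs10 had 1.49 in mutant molars and 1.28 in control molars (log2 ratio 0.22, unadjusted p = 0.395 in the authors' deposited table), and Bbs12 had 1.53 in mutant molars and 1.52 in control molars.

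Gate genes of the transition zone were spread to both sides. In the MKS module, which holds membrane proteins and tectonics at the ciliary base, 6 of 11 genes had higher means in mutant molars and 5 had lower ones, with a median log2 ratio of 0.02. B9d2 (chr7:25680780-25686558, plus strand) belongs to the B9-domain subunits with B9d1 and Mks1. It had a mean of 15.4 in mutant molars and 19.4 in control molars, which is 1.26-fold lower, with p = 0.0024 before and 0.0885 after adjustment in the authors' deposited table. Of its partners, Mks1 was also lower, at a log2 ratio of -0.14, and B9d1 was higher, at 0.18. Tmem231 (chr8:111912011-111933881, minus strand), a membrane protein needed to hold the gate, had 14.4 in mutant molars and 12.2 in control molars (1.18-fold higher, p = 0.0416 before and 0.24 after adjustment in the authors' deposited table). Tmem67, which encodes meckelin, had 4.78 in mutant molars and 3.99 in control molars, with a log2 ratio of 0.26 and an unadjusted p of 0.126. The coiled-coil gene Cc2d2a stood at 0.21, Tmem216 at 0.04 and Tmem107 at -0.07. The tectonic genes had log2 ratios of -0.10 for Tctn1, 0.02 for Tctn2 and -0.11 for Tctn3.

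Nphp4, a scaffold of the gate, had 2.69 in mutant molars and 2.22 in control molars (log2 ratio 0.28, unadjusted p = 0.147 in the authors' deposited table), and the scaffold gene Rpgrip1l stood at 0.27.

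The ciliary hedgehog regulators were split 2 to 2, with a median log2 ratio of -0.00703, and none had an unadjusted p under 0.05. Evc and Evc2 encode partners that sit above the transition zone and relay the signal of the receptor Smoothened. Evc had 46.7 in mutant molars and 40.8 in control molars (log2 ratio 0.19, unadjusted p = 0.102 in the authors' deposited table), while its partner Evc2 had a log2 ratio of -0.10. Kif7, the kinesin that organises the ciliary tip compartment of GLI proteins, had 28.6 in mutant molars and 31.6 in control molars (log2 ratio -0.14, unadjusted p = 0.181) in the authors' deposited table. Arl13b, a GTPase of the ciliary membrane, stood at 0.08.

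**Figure D2:**
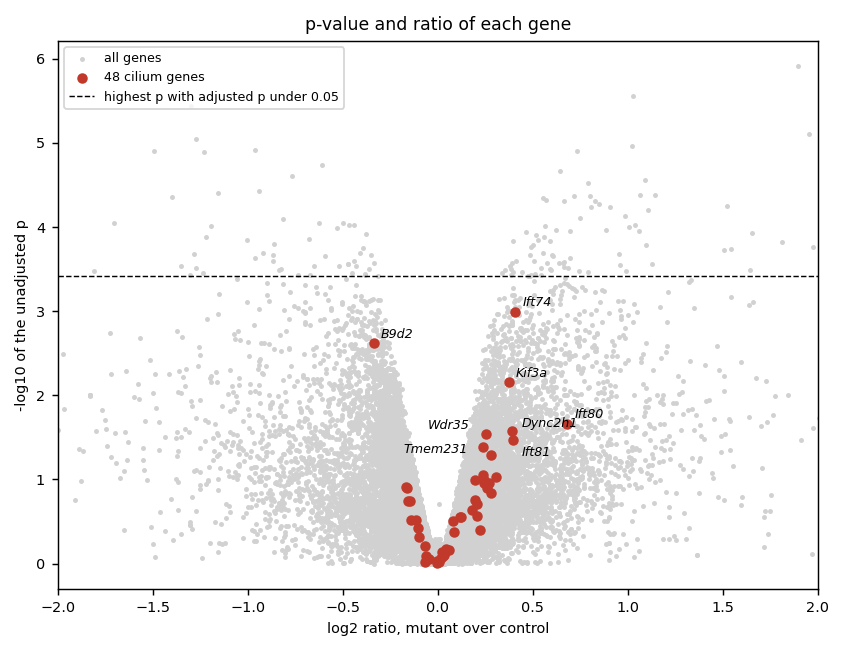
Each point is a gene, with the log2 ratio of mutant over control across and -log10 of the unadjusted p upward; grey points are all genes with a log2 ratio within 2 of 0 (54 lie outside), red points the 48 cilium genes. All red points lie under the dashed line, the highest p (0.000386) that still had an adjusted p under 0.05; Ift74 comes nearest to it.

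Genes of hedgehog signalling downstream of and around the cilium were counted next. Of 26 measured hedgehog transducers, 2 fell and none rose at the adjusted threshold, where 0.318% of all genes were lower and 0.471% higher. Gli1, a GLI factor and target, fell to 19.9 in mutant molars, against 38.8 in control molars. Its log2 ratio was -0.96 (adjusted p = 0.0228 in the authors' deposited table). Only the mutant group carried the Gli1-CreERT2 driver, and the labels do not say whether it interrupts Gli1. A lower hedgehog signal and an effect of the driver on Gli1 therefore cannot be told apart. Gas1, a hedgehog co-receptor, had 94.5 in mutant molars and 128.5 in control molars (adjusted p = 0.0484 in the authors' deposited table). As for Ptch1, a target gene and the receptor, it had 137.7 in mutant molars and 153.5 in control molars (log2 ratio -0.16, unadjusted p = 0.181 in the authors' deposited table). Efcab7, whose product anchors the Evc complex, had 1.90 in mutant molars and 1.15 in control molars, with an adjusted p of 0.15. Both calls were lost under the GC and length subtraction, with log2 ratios of -0.87 for Gli1 and -0.29 for Gas1 and adjusted p-values, recomputed from the authors' deposited table, of 0.0659 and 0.239. The median log2 ratio of the 26 was 0.05, close to the 0.08 of the 48 cilium genes. Runx2, the targeted gene, had 65.1 in mutant molars and 105.5 in control molars, 1.62-fold lower (adjusted p = 0.0646) in the authors' deposited table.

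Further ciliary genes, listed apart from the 48, were counted in the same way. Among 22 measured subunits of the trains, BBSome and motors that carry other names, 18 had higher means in the mutant, the median log2 ratio was 0.12, and none passed. Their lowest p-values belonged to Kifap3, the adaptor of kinesin-2 (55.0 in mutant molars and 43.8 in control molars, unadjusted p = 0.0056 in the authors' deposited table), to the IFT-A gene Ttc21b (11.7 in mutant molars and 9.18 in control molars) and to Ttc30b, an IFT-B gene whose reads may be shared with its close copies. Of 15 other transition zone and inversin genes none passed, with a median of 0.04. Cep290, which spans the gap between microtubules and membrane, had 11.1 in mutant molars and 7.09 in control molars (log2 ratio 0.64, adjusted p = 0.0568), and Anks6 of the inversin compartment had 28.8 in mutant molars and 39.6 in control molars (log2 ratio -0.46, adjusted p = 0.128) in the authors' deposited table. Unc119b, a carrier of lipid-modified proteins, stood at -0.22. With the trend on GC content and length subtracted, the log2 ratios were 0.21 for Cep290, -0.36 for Anks6 and -0.16 for Unc119b.

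Of 22 basal body and ciliogenesis genes, 1 rose, where 0.471% of all genes did. Pcm1, the scaffold of centriolar satellites, had 74.4 in mutant molars and 56.6 in control molars in the authors' deposited table (log2 ratio 0.39, adjusted p = 0.0486). Its GC content is 41.8%, and with the trend on GC content and length subtracted its log2 ratio was 0.21 and its call was lost (adjusted p = 0.299, recomputed from the authors' deposited table). The kinase gene Ttbk2, which starts cilium assembly at the mother centriole, stood at 0.31 and Rab3ip at -0.28, neither past the threshold. None of 7 cilium disassembly genes passed (median 0.12), with Kif2a at 0.21, Plk1 at 0.35 and Nek2 at 0.33. None of the 6 RFX factors measured passed. Rfx3, a regulator of ciliary genes in mice, had 5.58 in mutant molars and 3.89 in control molars. Its log2 ratio was 0.52 (unadjusted p = 0.0328 in the authors' deposited table), while Rfx7 stood at 0.15 and Rfx5 at 0.13. With the trend on GC content and length subtracted, Rfx3 stood at 0.33, Rfx7 at -0.07 and Rfx5 at 0.13. Of 29 motile cilium genes listed, 13 names were in the table, and none passed (median -0.03). Foxj1, the master factor of motile cilia, had 0.997 in mutant molars and 0.966 in control molars, and the sum over the 13 was 39.3 in mutant molars and 41.3 in control molars. Most of that sum was Cfap43, with 21.9 in mutant molars and 24.7 in control molars (log2 ratio -0.17). Dnah9 stood at 0.48. Armc4 stood at -0.89, with means near 0 (0.131 in mutant molars and 0.242 in control molars).

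**Figure D3:**
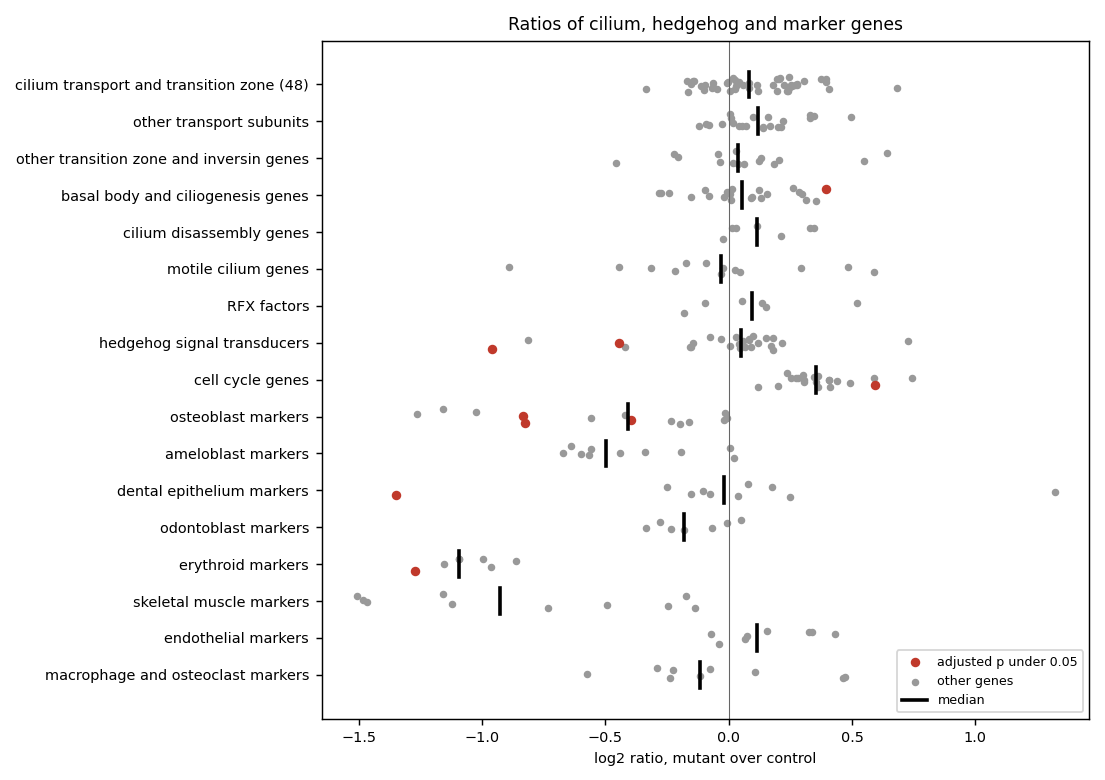
Log2 ratios of mutant over control for the genes of each list; red points passed an adjusted p of 0.05 and black bars are medians. The 48 cilium genes centre on 0.08 with no red point, while cell cycle genes lie to the right of 0 (median 0.35) and erythroid genes to the left (median -1.09).

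Markers of other cells and states in the tissue also differed in mean between the groups, and their part in the ratios above was not tested. All 21 cell cycle genes had higher means in the mutant, with a median log2 ratio of 0.35 and a sum of 441.4 in mutant molars and 337.9 in control molars. All 14 osteoblast markers (median -0.41), all 7 measured erythroid markers (-1.09), all 10 skeletal muscle markers (-0.93) and 8 of 10 ameloblast markers (-0.50) had lower means. The sums were 65204 for osteoblast, 425.8 for erythroid and 178215 for ameloblast markers in mutant molars, against 69229, 946.5 and 262792 in control molars. Most of the osteoblast sum was Col1a1, with 45190.5 in mutant molars and 45712.7 in control molars. Most of the ameloblast sum was Amelx (112174 and 174946). Sp7, Bglap, Bglap3 and the erythroid Hba-a1 passed the adjusted threshold as lower (0.318% of all genes). The cell cycle gene Mki67 passed as higher (0.471%). With the trend on GC content and length subtracted, none of them passed. Skeletal muscle markers were near 0, with a sum of 4.83 in mutant molars and 8.48 in control molars. Dental epithelium (-0.02), endothelial (0.11), odontoblast (-0.18), and macrophage and osteoclast markers (-0.12) had smaller medians. Of 8 endothelial markers 6 were higher, 3 of them at an unadjusted p under 0.05 (Flt1 at 0.43, Kdr at 0.34 and Tek at 0.33). Of 9 macrophage and osteoclast markers 3 were higher and 6 lower. Cx3cr1 (0.47) and Adgre1 (0.46) were higher at an unadjusted p under 0.05, while Mmp9 (-0.57) and Acp5 (-0.29) were lower without reaching it. No marker of either list passed the adjusted threshold. The dental epithelium median lay between keratin genes of opposite direction. Krt18, a keratin of simple epithelia, fell to 1.79 in mutant molars, against 4.58 in control molars (log2 ratio -1.35, adjusted p = 0.0484), and Krt15, a keratin of basal epithelial cells, had 15.8 in mutant molars and 6.34 in control molars (1.32, adjusted p = 0.0545) in the authors' deposited table. With the trend on GC content and length subtracted, Krt15 passed (adjusted p = 0.0192) and Krt18 did not (0.248), as recomputed from the authors' deposited table.

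Transcript composition went along with the ratios. Across the 48 cilium genes the log2 ratio had a Pearson correlation of -0.50 and a Spearman correlation of -0.50 with the GC content of their transcripts, and of 0.45 and 0.42 with log2 exonic length, all given as a description since the genes share the same libraries. Over 13127 protein-coding genes with a mean of at least 1, the same correlations with GC content were -0.40 and -0.44, and with length 0.23 and 0.28. The 24 GC-poorer cilium genes (40.9% to 49.2%) had a median log2 ratio of 0.21, with 20 higher in the mutant. The 24 GC-richer ones (49.8% to 60.0%) had a median of 0.02, with 13 higher. In the protein-coding genes split at the same GC content, the medians were 0.10 and -0.07, and 69.6% and 36.3% of genes were higher in the mutant. Among the genes with low p-values, the GC content was 41.0% for Ift74, 42.0% for Ift80, 43.3% for Dync2h1 and 43.6% for Ift81, against 58.1% for B9d2. Ift80 and Dync2h1 are long, with 12428 and 16348 exonic bases, and B9d2 is short, with 1454. When the trend on GC content and length was subtracted, the median of the 48 was 0.04, against -0.01 over all genes, and 31 were higher. Of the 33 genes higher before, 29 were higher after as well and 4 turned lower (Bbs12, Bbs9, Arl13b and Kif3b), while Ift43 and Tmem107 turned higher. At an unadjusted p under 0.05 the subtraction left 5 of the 48, against 13.2% of all genes. Besides the 3 that remained of the earlier 8, these were B9d1 and Nphp4. The lowest adjusted p of the 48, recomputed from the authors' deposited table, was then 0.243. Kif3a, with 48.1% GC, stood at 0.37 before and 0.35 after, and Tmem231, with 49.8%, at 0.24 before and 0.22 after, while Ift74 stood at 0.25, Ift80 at 0.47, Dync2h1 at 0.18 and B9d2 at -0.17. The part of GC content and length in the ratios was not tested.

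**Figure D4:**
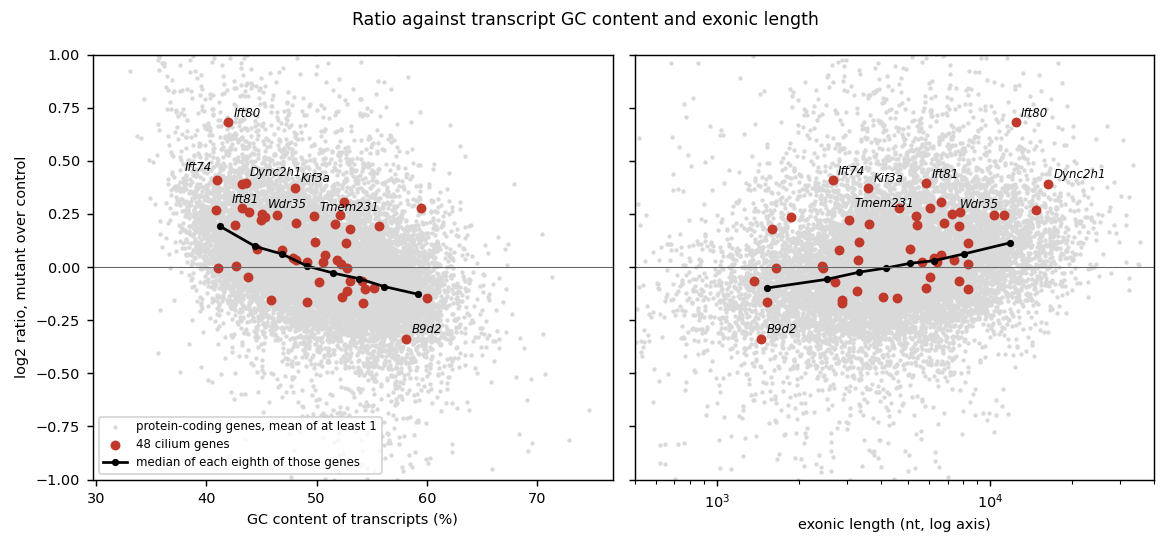
Log2 ratio of mutant over control against the GC content of transcripts (left) and exonic length on a log axis (right), for protein-coding genes with a mean of at least 1 (grey; points outside -1 to 1 are not drawn) and the 48 cilium genes (red). The black line joins the medians of eighths of the grey genes, which run from 0.19 at the GC-poorest to -0.13 at the GC-richest, and most of the highest red points lie on the GC-poor side.

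Some of the 48 genes share exonic bases with other genes, and whether the counting used strand is not given in the sources used here. An exonic overlap was annotated for 10 of the 48, and for 7 of them (Tmem67, Kif7, Tctn1, Kif3c, Tmem216, Bbs4 and Bbs12) the partner was itself in the table. The longest of these lay between Kif3c and the antisense gene 1110002L01Rik, with 2617 shared bases, and between Tctn1 and Hvcn1, with 1574. Reads in these stretches cannot be assigned without strand. The 8 genes with an unadjusted p under 0.05 had no annotated exonic overlap.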

How the data were processed

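The apical part of lower first molars in 4 mutant and 4 control libraries was sequenced. The submitters' processing notes list STAR 2.6.1d, Partek and mm10, with no role for each; annotation, counting and normalisation were not stated. Per the file headers, the values compare knockout with wild type. The group means and the deposited total are normalised signal values made by the authors, the total being 4 times the sum of both means for all 17631 genes (relative tolerance 1e-06). The deposited ratio is mutant over control, the signed fold change is a score that restates it, and the deposited adjusted p-value is the Benjamini-Hochberg adjustment over all genes.

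With no values per library, the planned test on counts could not be used, and the authors' p-values were taken, with calls at an adjusted p under 0.05. Log2 ratios, counts and medians were computed with Python 3.11.15 and pandas 2.3.3. The annotation was GENCODE M21 on GRCm38, with a symbol match for 17561 genes (99.6%), all 48 cilium genes among them, for coordinates, exonic length and the GC content of all transcripts of a gene. A smooth trend on GC content and log2 length was fitted over 13127 protein-coding genes with mgcv 1.9.3 (R 4.3.3) and subtracted as an alternative. The signed z and the log2 ratio were fitted separately, and the fit to z was checked on simulated data. The trends held 25.9% of the variance of the signed z and 18.9% of that of the log2 ratio. P-values after subtraction came from the remaining z, read as a standard normal value. They need not match the subtracted log2 ratios.

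Both means were to be printed for cilium genes with an unadjusted p under 0.05 and for the extremes of each complex; the rest are given by log2 ratio, and up to 3 genes of lowest p from other lists. The members and lists were chosen with earlier results of these data known, so lists are described and not tested. The promoters of Dync2li1, Ift122, Ift80, Ift81 and Tmem67, among others, were not analysed here. The values of 2 of the 48 genes are not reported here singly, and both count in the totals.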

Additional observations from a re-analysis of the deposited data

How the results depend on the processing

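No call was made among the 48 genes at the authors' adjusted p under 0.05, nor when p-values were adjusted over genes with a mean of at least 1 or with the trend on GC and length taken off (29 genes of the table then passed). At an adjusted p under 0.10, 2 were called (Ift74 higher, B9d2 lower; 3.64% of all genes), and 8 at an unadjusted p under 0.05. Dividing each group mean by its sum over all genes shifted all log2 ratios by 0.14, and Amelx alone made up 65.8% of the difference between the sums. The median of the 48 was then 0.22, against 0.14 over all genes, and the medians by complex were 0.38 for IFT-A, 0.34 for the IFT-B core, 0.21 for peripheral IFT-B, 0.17 for kinesin-2, 0.45 for dynein-2, 0.16 for the BBSome, 0.25 for the BBS chaperonins, 0.15 for the MKS module and 0.13 for the hedgehog regulators. Under that scaling 42 genes were higher in the mutant, against 71.8% of all genes, and among the 21 genes named by rule Bbs1 and Ift43 changed sign. With the GC and length trend subtracted the medians of IFT-A (0.11) and dynein-2 (0.18) moved by over 0.1, the BBSome median turned to -0.04, and Bbs12, Bbs9, Arl13b, Kif3b, Ift43 and Tmem107 changed sign. None of the 2 calls under 0.10 and 3 of the 8 at an unadjusted p under 0.05 were left. Restricting to the 41 genes with a mean of at least 5 left the BBS chaperonins without a value. Under that restriction the MKS module median turned from 0.02 to -0.02, over 8 genes. The cause of these shifts was not tested. Centring on the median gene and a pseudocount of 1 moved none of these medians or ratios by over 0.1. No paired analysis was possible because the table holds group means and no values per library, and for the same reason no library could be left out. Depth per library is unknown.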
